A study of Arundinella anomala and Arundinella fluviatilis and Arundinella hirta with 8 samples.

Results

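Carbonic anhydrase is represented here by 2 maize gene models, GRMZM2G121878 (carbonic anhydrase 1) and GRMZM2G348512 (carbonic anhydrase 2), out of 26274 genes in the table. They were taken by identifier: every row whose name, without its protein model suffix, is one of these genes. This gave 6 of the 36698 rows, 4 for carbonic anhydrase 1 and 2 for carbonic anhydrase 2. The enzyme names come from general knowledge of maize, since the files hold identifiers without names, and they could not be checked in the sources used here. No sum below stands for all carbonic anhydrase of a leaf, and a listing of both genes at 0 does not show a leaf without the enzyme's transcripts. Further maize gene models recalled as carbonic anhydrases had values in these libraries. They are not annotated in the sources used here, so they are not named and their values are not given. Of them, 1 was abundant in *A. nepalensis* and also in *A. pubescens*, a library that listed both genes of this report.

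RNA was sequenced from the third leaf of wild-type, mature plants of 8 C4 grasses, with 1 library per species, grown at 22 °C with 16 h of light and 8 h of dark. The 3 genera with a single species were *Imperata cylindrica*, *Capillipedium parviflorum* and *Bothriochloa ischaemum*, and the 5 species of *Arundinella* were *A. pubescens*, *A. nepalensis*, *A. hirta*, *A. fluviatilis* and *A. anomala*. Values are FPKM, which scale fragments to the length of a sequence and to library size, as is needed to compare genes. How fragments were tied to maize models was not given, so how well values of different genes compare here is not known. Neither read counts nor a repeat library of any species was available, so a value has no error of its own, the depth is unknown, and neighbours in an order of species cannot be said to differ.

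Carbonic anhydrase interconverts carbon dioxide and bicarbonate. In a C4 leaf the mesophyll enzyme supplies the bicarbonate that PEP carboxylase joins to PEP, the first fixation of carbon in the pathway. That carbonic anhydrase lies in the cytosol of the mesophyll cells, beside PEP carboxylase, which acts on bicarbonate and not on dissolved carbon dioxide. These are background statements and were not measured here.

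The libraries differed in how much they listed, and this bears on each value below. Between 8142 genes (*C. parviflorum*) and 20607 genes (*A. pubescens*) were above 0, and the FPKM of a library summed to between 212357 (*C. parviflorum*) and 829005 (*A. pubescens*). A value of 0 is called "listed at 0", because genes that a leaf uses were also at 0 in some libraries. Of 3 gene models noted as leaf markers, the Rubisco small subunit GRMZM2G113033 was above 0 in all 8 libraries, from 35.8 FPKM in *I. cylindrica* to 11028 in *A. nepalensis*. A further small subunit model, GRMZM2G098520, ranged from 0 to 43.3 FPKM except in *A. nepalensis*, where it was at 1619, and Rubisco activase GRMZM2G162282 was above 0 in 5 libraries, at up to 27.4 FPKM.

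Carbonic anhydrase 1 was an abundant transcript in 5 of the 8 species and was listed at 0 in the other 3. Summed over its protein models it stood at 1083 FPKM in *A. anomala*, 6685 in *A. fluviatilis*, 1452 in *A. hirta*, 0 in *A. nepalensis* and 1684 in *A. pubescens*. In the other genera it stood at 0 in *B. ischaemum*, 831 in *C. parviflorum* and 0 in *I. cylindrica*. *A. fluviatilis* was thus 3.97-fold above the next library, *A. pubescens*, while the other libraries with a value followed one another at steps of 1.16-fold to 1.34-fold. There was no intermediate level: the 5 libraries that listed the gene held at least 831 FPKM.

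Carbonic anhydrase 2 was low in most species and high in 1. It stood at 17.8 FPKM in *A. anomala*, 14.4 in *A. fluviatilis*, 12.9 in *A. hirta*, 0 in *A. nepalensis* and 6.61 in *A. pubescens*. In the other genera it stood at 17.6 FPKM in *B. ischaemum*, 748 in *C. parviflorum* and 0 in *I. cylindrica*. The value in *C. parviflorum* was 42.1-fold above the next, and the 5 other libraries with a value lay within 6.61 to 17.8 FPKM. Of all 26274 genes, 20 (0.0761%) reached 500 FPKM in a single library and stayed under 20 FPKM in the 7 others, and carbonic anhydrase 2 was the 1 such gene of *C. parviflorum*. These limits were chosen after the values had been seen.

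Row by row, carbonic anhydrase 1 was not carried by the same protein model in every species. The P06 model was above 0 only in *Arundinella*: 448 FPKM in *A. anomala*, 4399.6 in *A. fluviatilis*, 1452 in *A. hirta* and 1684 in *A. pubescens*, and 0 in the other 4 libraries. It made up 41.4% of the gene in *A. anomala*, 65.8% in *A. fluviatilis* and 100% in *A. hirta* and *A. pubescens*. The P04 model was above 0 only in *A. anomala*, at 634 FPKM, where it made up 58.6% of the gene. The P03 model was at 2285 FPKM in *A. fluviatilis* and at 127 in *C. parviflorum*, and at 0 elsewhere. The P02 model was above 0 only in *C. parviflorum*, at 704 FPKM, or 84.7% of the gene there. No P06 value was listed in *C. parviflorum*, so for this gene that species shared only the P03 row with an *Arundinella* library.

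Carbonic anhydrase 2 had a low row that many species shared and a high row of 1 species. The P02 model was at 17.8 FPKM in *A. anomala*, 14.4 in *A. fluviatilis*, 12.9 in *A. hirta*, 6.61 in *A. pubescens*, 17.6 in *B. ischaemum* and 37.7 in *C. parviflorum*. It was listed at 0 in *A. nepalensis* and *I. cylindrica*. The P06 model was above 0 only in *C. parviflorum*, at 710.1 FPKM, or 95.0% of the gene there. On the shared P02 row, *C. parviflorum* was therefore also the highest library, but by 37.7 against 17.8 FPKM.

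**Figure D1:**
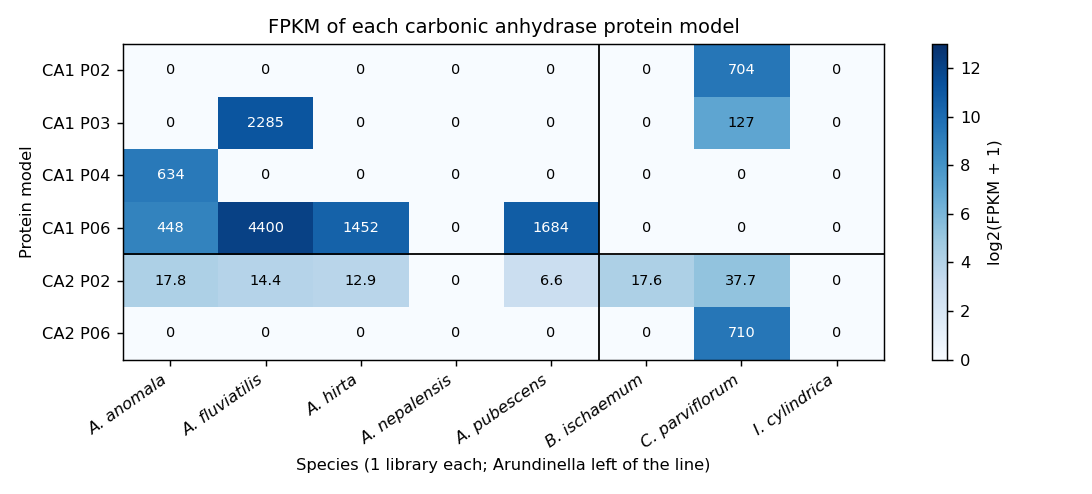
FPKM of the 6 protein models (rows) in the 8 libraries (columns, 1 per species). Colour gives log2(FPKM + 1) and each cell prints its FPKM. In *C. parviflorum* the highest row of each gene, at 704 and 710.1 FPKM, is at 0 in the 7 other libraries.

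Of the 6 rows, 5 reached 500 FPKM in some library, and 3 of these 5 were above 0 in that library alone. In all, 417 rows reached 500 FPKM and 15 of them (3.60%) were above 0 in 1 library only. The 3 carbonic anhydrase rows are among those 15, and 2 of the 3 such rows of *C. parviflorum* belong to these genes. The limit of 500 FPKM was chosen with the values known, and no test was made.

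A change of protein model between species was common for genes with several rows. Of the 420 genes with 4 rows that were above 0 in at least 5 libraries, 79 (18.8%) had the same highest row in each of those libraries, and carbonic anhydrase 1 was not among them. The corresponding share was 43.4% of 3595 genes with 2 rows, and carbonic anhydrase 2 was not among them either. A single row above 0 was found in 2 of the 5 libraries that listed carbonic anhydrase 1 and in 5 of the 6 that listed carbonic anhydrase 2. For all genes with 4 rows and with 2 rows these shares were 33.7% and 62.3% of the gene and library pairs. The estimate that divides fragments among similar sequences acts between such rows, and could act between the 2 genes. Its part in these values was not tested.

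The deposited cross-reference lists 6 protein models for each gene, of which the table holds 4 and 2. It also gives the 2 genes locus tags that follow each other with no other tag between them. The gene before the pair in tag order, GRMZM2G048010, reached at most 1.64 FPKM in any library, and the one after it, GRMZM2G122028, at most 12.1. The next 2 genes in tag order after these, GRMZM2G047695 and GRMZM2G057942, reached 186 and 67.3 FPKM, above carbonic anhydrase 2 in several libraries and below the levels of carbonic anhydrase 1 where that was listed. The sources used here give no genome positions, and none of the sequences.

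The balance between the genes was then compared within each library, where the scaling of the library acts on both alike. Carbonic anhydrase 1 led in 5 libraries, carbonic anhydrase 2 in 1, and both were listed at 0 in 2. That lead was 464-fold in *A. fluviatilis*, 255-fold in *A. pubescens*, 113-fold in *A. hirta* and 61.0-fold in *A. anomala*. In *C. parviflorum* the genes were nearly level, at 831 and 748 FPKM, a ratio of 1.11. In *B. ischaemum* only carbonic anhydrase 2 was listed, at 17.6 FPKM.

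Carbonic anhydrase 2 accordingly made up 0.215% to 1.61% of the sum of both genes in the 4 *Arundinella* libraries that listed them, and 47.4% in *C. parviflorum*. On the log2(FPKM + 1) scale the difference of carbonic anhydrase 1 minus carbonic anhydrase 2 was 5.85 in *A. anomala*, 8.76 in *A. fluviatilis*, 6.71 in *A. hirta*, 7.79 in *A. pubescens*, 0.15 in *C. parviflorum* and −4.22 in *B. ischaemum*, and 0 where neither was listed. The value of *B. ischaemum* rests on the pseudocount of 1. The mean over the 8 species was 3.13 ± 4.72 (SD), smaller than its SD (exact permutation test by sign flips, two-sided p = 0.0938). The smallest p the test allows is 0.0078 with 8 nonzero differences and 0.0312 with the 6 found here. Within *Arundinella* the mean was 5.82 ± 3.43 (SD, n = 5; exact permutation p = 0.125), which is also the smallest p that its 4 nonzero differences allow.

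**Figure D2:**
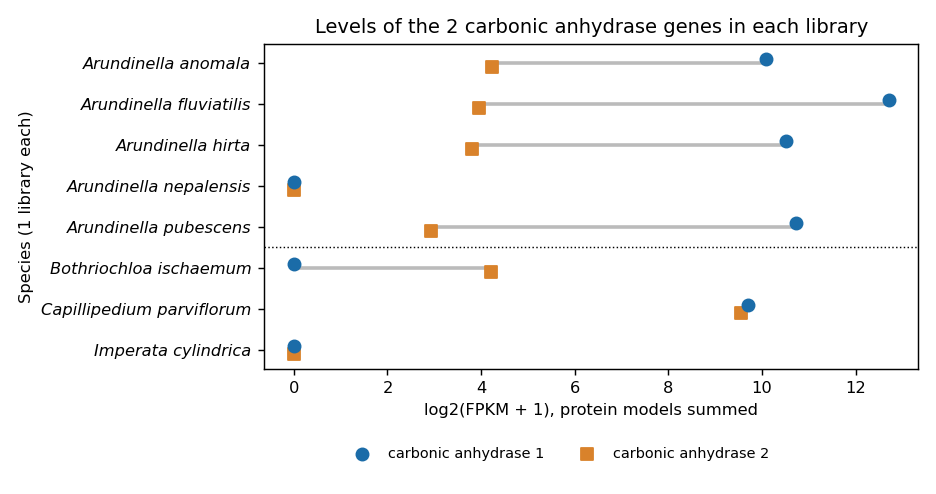
Level of carbonic anhydrase 1 (circles) and carbonic anhydrase 2 (squares) in log2(FPKM + 1) on the horizontal axis, 1 library per species on the vertical axis, with *Arundinella* above the dotted line. The genes lie 5.85 to 8.76 log2 units apart in 4 *Arundinella* libraries and 0.15 apart in *C. parviflorum*.

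The comparison between groups set the 5 *Arundinella* species against the 3 of other genera, in a fit over 18780 genes. Carbonic anhydrase 1 averaged 8.80 on the log2(FPKM + 1) scale in *Arundinella* and 3.23 in the other genera. The difference of 5.57 ± 2.77 (SE) did not pass (limma, adjusted p = 0.190). Its size rests in part on the pseudocount, since the gene was at 0 in 3 libraries. It was 7.12 with a pseudocount of 0.1 and 4.02 with 10. The groups overlapped, since *A. nepalensis* was at 0 with *B. ischaemum* and *I. cylindrica*, and the 831 FPKM of *C. parviflorum* lay below the 4 other *Arundinella* libraries. In this fit 343 genes passed, or 1.83% of those tested: 335 (1.78%) were higher in *Arundinella* and 8 (0.0426%) lower, a split that became 8 higher and 12 lower under quantile normalization. All differences are to be read against a median shift of 1.74 log2 units towards *Arundinella*, the direction in which 91.4% of genes were fitted.

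Carbonic anhydrase 2 was fitted in the other direction, with a mean of 2.98 in *Arundinella* and 4.59 in the other genera, a difference of −1.61 ± 1.80 (SE) on the log2(FPKM + 1) scale that did not pass (limma, adjusted p = 0.504). The groups overlapped here as well: *A. nepalensis* and *I. cylindrica* were both at 0, and *A. anomala* and *B. ischaemum* stood at 17.8 and 17.6 FPKM. The negative sign came from *C. parviflorum*, for without that library the difference was 0.87 (adjusted p = 0.719). Missing the threshold does not show that the genera are alike in either gene.

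On another scale the order of the species changed, though not which libraries held the genes. As a share of the summed FPKM of its library, the sum of both genes was 0.824% in *A. fluviatilis*, 0.744% in *C. parviflorum*, 0.458% in *A. hirta*, 0.204% in *A. pubescens*, 0.137% in *A. anomala* and 0.0062% in *B. ischaemum*. In deposited FPKM the same sum was 6699, 1579, 1464, 1690, 1100.5 and 17.6 in that order of species. *A. fluviatilis* led the next library 3.96-fold in FPKM and 1.11-fold as a share, and *C. parviflorum* stood above *A. hirta* and *A. anomala* on both scales but above *A. pubescens* only as a share. *C. parviflorum* had the smallest summed FPKM of the 8 libraries and the fewest genes above 0.

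**Figure D3:**
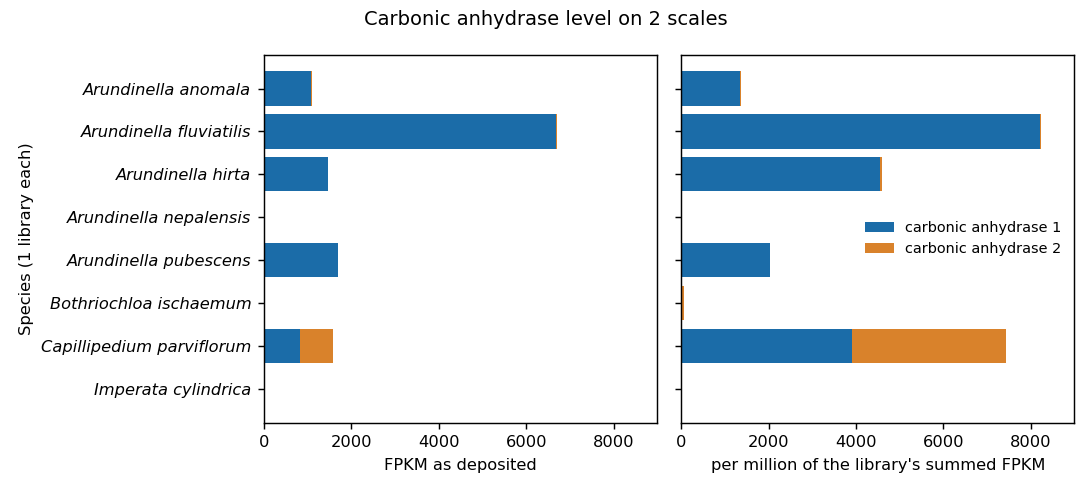
Bars give carbonic anhydrase 1 (blue) stacked with carbonic anhydrase 2 (orange) in each library, as deposited FPKM (left) and scaled so that each library sums to 1000000 (right). *C. parviflorum* stands at 1579 on the left and 7435 on the right, where *A. fluviatilis* stands at 6699 and 8238.

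Ranks within a library do not depend on its scaling. Carbonic anhydrase 1 ranked 5 of 20388 genes above 0 in *A. fluviatilis*, 26 of 10697 in *A. hirta*, 34 of 8142 in *C. parviflorum*, 51 of 20607 in *A. pubescens* and 55 of 20468 in *A. anomala*. In each of the 5 libraries that listed it, it therefore lay in the top 0.418% of the genes listed, and in *A. fluviatilis* in the top 0.0245%.

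Carbonic anhydrase 2 ranked 40 of 8142 genes in *C. parviflorum*, 6 places below carbonic anhydrase 1. Elsewhere it was a transcript of middle rank: 2057 of 9681 genes in *B. ischaemum*, 3013 of 10697 in *A. hirta*, 7975 of 20388 in *A. fluviatilis*, 7991 of 20468 in *A. anomala* and 12598 of 20607 in *A. pubescens*. The top share this corresponds to ran from 21.2% in *B. ischaemum* to 61.1% in *A. pubescens*. Nearly equal FPKM thus meant different ranks: 17.8 FPKM placed the gene in the top 39.0% in *A. anomala*, and 17.6 FPKM in the top 21.2% in *B. ischaemum*. These libraries differed both in summed FPKM, 801499 and 284445, and in genes above 0, 20468 and 9681. The part of either in the ranks was not tested.

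**Figure D4:**
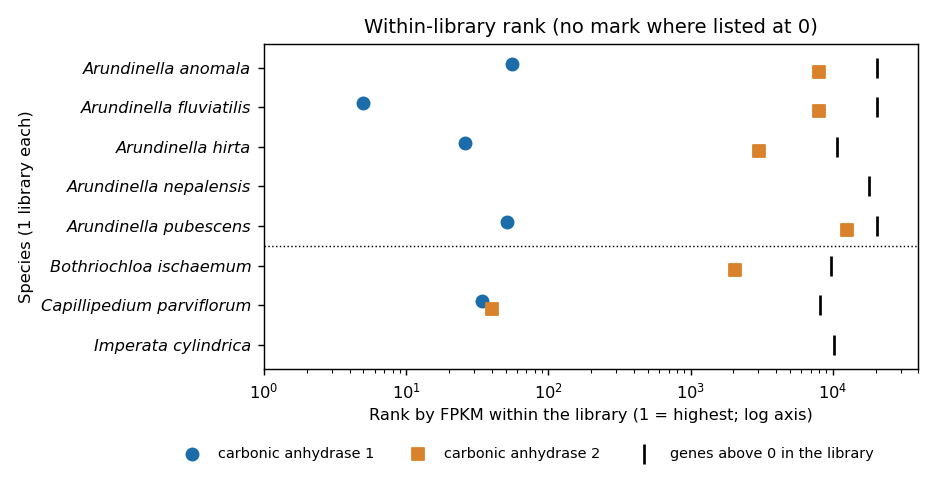
Rank by FPKM among genes above 0 (horizontal log axis, 1 is highest) for carbonic anhydrase 1 (circles) and carbonic anhydrase 2 (squares) in each library, with a tick at the number of genes above 0. Carbonic anhydrase 1 lies between rank 5 and 55 where listed, and carbonic anhydrase 2 joins it, at rank 40, only in *C. parviflorum*.

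The listing at 0 of carbonic anhydrase 1 in *A. nepalensis*, *B. ischaemum* and *I. cylindrica* was set against other abundant genes. In 4 or more libraries, 83 genes reached 500 FPKM. Of these, 3 (3.61%) were at 0 in *A. nepalensis*, 27 (32.5%) in *B. ischaemum* and 30 (36.1%) in *I. cylindrica*. In *A. hirta* and *C. parviflorum*, which listed carbonic anhydrase 1, 22 (26.5%) and 29 (34.9%) were at 0, and in the 3 other *Arundinella* libraries at most 1 was. Carbonic anhydrase 1 was the 1 gene of the 83 that was at 0 in all of *A. nepalensis*, *B. ischaemum* and *I. cylindrica*. These libraries were picked because the gene was at 0 in them, so its own place in this count was fixed beforehand. No other set of 3 libraries was counted. The 4 libraries with the largest summed FPKM, *A. nepalensis* among them, could meet the limit of 500 FPKM most readily, and the part of this choice in their low shares was not tested. Values are listed under maize models, and how far sequence differences from maize set a value to 0 was not tested. The limits were chosen after the values had been seen.

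The next step of the C4 pathway gave a different order of species. GRMZM2G083841, noted from general knowledge of maize as the C4 form of PEP carboxylase, which uses the bicarbonate, was above the sum of both carbonic anhydrase genes in *A. anomala* (2285 against 1100.5 FPKM), *A. fluviatilis* (24807 against 6699) and *A. pubescens* (7380.3 against 1690.3). The excess was 2.08-fold, 3.70-fold and 4.37-fold. In *A. hirta* and *C. parviflorum* carbonic anhydrase was present, at 1464 and 1579 FPKM, and this PEP carboxylase was listed at 0. In *I. cylindrica* PEP carboxylase was at 11746 FPKM and both carbonic anhydrase genes were at 0. In *A. nepalensis* PEP carboxylase was at 10.02 FPKM against 0, and in *B. ischaemum* at 0 against 17.6.

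**Figure D5:**
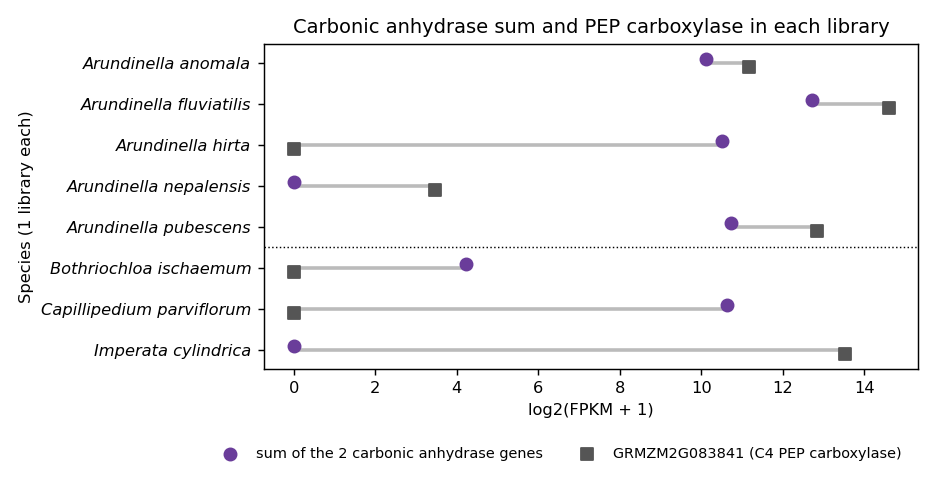
Sum of the 2 carbonic anhydrase genes (circles) and GRMZM2G083841, the C4 form of PEP carboxylase (squares), in log2(FPKM + 1) on the horizontal axis for the 1 library of each species. Both are high in *A. anomala*, *A. fluviatilis* and *A. pubescens*, and in *A. hirta*, *C. parviflorum* and *I. cylindrica* 1 of them is at 0 while the other is at 1464 FPKM or more.

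The other genes of the pathway were described by a list of 13 gene models recalled as enzymes and transporters of the C4 cycle, with the results of these data known. In the comparison by genus 1 of the 13, GRMZM2G094712, passed as higher in *Arundinella* (limma, adjusted p = 0.0477), where 1.78% of all genes did, and none passed as lower. That gene was at 0 in the 3 other genera, so its fitted value rests on the pseudocount, and the call ended under 12 of 18 alternatives (adjusted p from 0.00117 to 0.181), among them a pseudocount of 10 and leaving out any 1 library other than *A. hirta*. An unadjusted p under 0.05 was found for 4 of the 13 (30.8%), near the 29.1% of all genes. Of the 13, 12 were fitted higher in *Arundinella* (92.3%), near the 91.4% of all genes. Under quantile normalization 9 were (69.2%, against 44.7% of all genes), under median-of-ratios scaling 9 (69.2% against 80.9%) and with each library scaled to the same total 10 (76.9% against 80.8%). Carbonic anhydrase 1 stayed higher and carbonic anhydrase 2 lower in *Arundinella* under these 3 scalings. With FPKM as deposited, the median difference of the 13 genes was 3.86 log2 units, against 1.74 over all genes and 5.57 for carbonic anhydrase 1. This median includes genes at 0 in every library of the other genera, whose fitted values rest on the pseudocount. The difference for carbonic anhydrase 1 rests on it in part as well. In the scaling as deposited, carbonic anhydrase 2 was fitted in the minority direction.

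Library by library, counts of the list at a fixed level did not follow carbonic anhydrase. The number of the 13 genes at 100 FPKM or more was 9 in *A. anomala* and 8 in *A. fluviatilis*. It was 6 in *A. pubescens*, 4 in both *A. nepalensis* and *I. cylindrica* and 2 in each of *A. hirta*, *B. ischaemum* and *C. parviflorum*. *A. nepalensis* and *I. cylindrica*, where these 2 carbonic anhydrase genes were at 0, thus held more of these genes at that level than *A. hirta* and *C. parviflorum*, where carbonic anhydrase 1 ranked 26 and 34. Their summed FPKM were also larger, at 701722 and 349576 against 319415 and 212357. The share of all genes at 100 FPKM or more was not computed, so these counts have no background, and the part of library scale in them was not tested. In *C. parviflorum* 1 of the 13 genes exceeded the carbonic anhydrase sum, against 2 in *A. fluviatilis*, 2 in *A. hirta*, 4 in *A. pubescens* and 5 in *A. anomala*.

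The genes whose pattern over the 8 libraries was most like that of carbonic anhydrase 1, by Pearson's r of log2(FPKM + 1), were GRMZM2G003631 (r = 0.99, Spearman's rho = 0.82) and GRMZM2G108474 (r = 0.99, rho = 0.96). The first stood at 28.7 to 45.5 FPKM in the 5 libraries that listed carbonic anhydrase 1 and at 0 in the 3 others. The second stood at 320 to 538 FPKM in those 5, at 1.30 in *A. nepalensis* and at 0 in *B. ischaemum* and *I. cylindrica*. Both were highest in *A. fluviatilis*, as carbonic anhydrase 1 was, but spanned a much narrower range. Both genes share with carbonic anhydrase 1 the 3 libraries at or near 0, and too few libraries are left without these to tell whether the likeness holds apart from them.

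For carbonic anhydrase 2 the nearest genes were GRMZM2G130454 (r = 0.97, rho = 0.76) and GRMZM2G009139 (r = 0.96, rho = 0.81). Both were highest in *C. parviflorum*, the second at 12.1 FPKM, and at 0 in *A. nepalensis* and *I. cylindrica*. Apart from these 3 libraries too few are left to compare the patterns. The highest value of any of these 4 genes was 538 FPKM, that of GRMZM2G108474 in *A. fluviatilis*. The files pair the 4 identifiers with no name. The 2 carbonic anhydrase genes themselves correlated at r = 0.54 and rho = 0.20 over the 8 libraries, which share 0 in *A. nepalensis* and *I. cylindrica*.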

How the data were processed

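The authors deposited 1 table of FPKM for the 8 libraries, on maize protein models. Per the labels' protocols, total RNA and a TruSeq RNA kit were used, and RSEM is named in the submitters' processing notes. Its version, the aligner and how fragments were tied to maize models were not given in the sources used here. FPKM keep no read counts, so depth is unknown. Columns were matched to species by name. Rows were summed per gene. Species were grouped by genus, and replicates were numbered in accession order, which pairs nothing. With no species repeated, a p-value reflects only how these libraries vary, and congeners share ancestry.

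Genes that reached 1 FPKM in 3 or more libraries entered a test on log2(FPKM + 1), which understates changes of low genes, with limma 3.58.1 (R 4.3.3; eBayes with trend), two-sided, with Benjamini-Hochberg adjustment over all genes at 0.05. The balance used an exact sign-flip permutation. Both were run on simulated, normally distributed data, which lack the values at exactly 0 found here. Those runs therefore do not show how the tests behave on such values. Other steps used Python 3.11.15 with scipy 1.17.1, numpy 2.4.6, pandas 2.3.3 and matplotlib 3.10.9. Members, lists and alternatives were chosen with earlier results of these data known. Named are both members, the 2 genes most like each by Pearson's r, PEP carboxylase from the C4 list, the leaf markers and, chosen after their values were seen, the neighbours in tag order and the 1 C4 gene that passed. Alternatives were other pseudocounts, filters, scalings, limma settings, the highest protein model per gene, and leaving out each library.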

Additional observations from a re-analysis of the deposited data

Results flagged for a closer look

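Among the 5 *Arundinella* libraries, 6 measures of the genes were checked for a library far from the rest, and 3 stood out. Chance gives about 1 in 20 only for normally distributed values, which these were not shown to be. The measures are also not independent, and the library flagged changed with the scale. Carbonic anhydrase 1 in *A. fluviatilis*, at 6685 FPKM, lay above the other 4 by 0.748 of the group's range, past the critical value of 0.71. The sum of both genes in the same library, at 6699 FPKM, gave 0.748 as well and is nearly the same measure. With each library scaled to the same total, carbonic anhydrase 1 in *A. fluviatilis* was 1.81-fold above the next library, *A. hirta*. In FPKM it was 3.97-fold above the next, *A. pubescens*. The check for an outlying library was not made on the scaled values. On the log2(FPKM + 1) scale the library that stood apart was *A. nepalensis*, where carbonic anhydrase 1 was at 0, with a gap of 0.793 of the range.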

How the results depend on the processing

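In the comparison by genus no pairing was possible, because the groups hold different species with 1 library each. The balance compared the genes within each library. Neither gene passed in the comparison by genus under any of 18 alternatives. For carbonic anhydrase 1 the log2 difference ran from 4.02 to 7.12 over 10 settings and from 3.95 to 8.80 with 1 library left out (limma, adjusted p from 0.107 to 0.437 over all 18). For carbonic anhydrase 2 it ran from −3.17 to −1.23 over the settings and from −3.90 to 0.87 with 1 library left out, the sign turning without *C. parviflorum* alone (adjusted p from 0.144 to 0.746). The mean balance ran from 2.78 to 5.82 over 6 settings and from 2.33 to 4.18 with 1 library left out (exact permutation p from 0.0625, without *B. ischaemum* and the smallest its nonzero differences allow, to 0.219). The 5.82 was for the *Arundinella* libraries only, and leaving out the libraries with both genes at 0 gave 4.17. With all 8 libraries kept, the mean ran from 2.78 with a pseudocount of 0.1 to 3.09 with 10. Scaling each library to the same total was added after seeing the data.

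The number of genes passing, the background to both, was 343, and it depended strongly on the processing: 799 with a pseudocount of 0.1, 0 with 10 (limma), 20 with quantile normalization (8 higher, 12 lower, median shift −0.16), 152 with median-of-ratios scaling (median shift 1.09) and 621 without trend. In the remaining settings the number lay nearer 343. It was 258 with robust estimation, 277 with each library scaled to the same total and 300 with no filter. It was 338 with the highest protein model per gene and 464 with at least 5 FPKM in 3 or more libraries. With 1 library left out it ran from 1 to 5847: leaving out *A. hirta* gave 5847 genes, *I. cylindrica* 629, *A. nepalensis* 328, *A. pubescens* 90, *A. fluviatilis* 71, *C. parviflorum* 22, *B. ischaemum* 3 and *A. anomala* 1. The cause was not tested. Without depths, a listing at 0 cannot be given an upper limit.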
